A study of Homo sapiens with 6 samples.

Results

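CELF1 (CUGBP1) RIP-Seq of UACC-62, an established human line of metastatic melanoma, was analysed in 2 replicates. RIP-Seq sequences the RNA that is recovered with an immunoprecipitated protein (IP) beside the RNA of the lysate (input), and here served to find which mRNAs were held by CELF1. Of the 6 samples of the series, 4 belonged to this comparison, namely UACC-62 IP (n = 2, replicates 1 and 3) and UACC-62 Input (n = 2, replicates 1 and 3). All cells were untreated, were grown in serum-containing medium and were fixed with formaldehyde, and the IP used anti-CUGBP1 antibody on protein A beads. The series describes the UACC-62 experiments as biological duplicates. As a single line in culture, UACC-62 stands for 1 tumor. Libraries made with control IgG were not analysed here, so that RNA recovered without CELF1 was not measured.

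CELF1 is an RNA-binding protein of nucleus and cytoplasm that prefers GU-rich sequence, and is known for shortening poly(A) tails and promoting decay of mRNAs through their 3' UTRs, as well as for roles in translation and alternative splicing. IP over input is a relative measure of recovery, since both libraries are scaled to their totals, and a positive value for some mRNAs requires negative values for others.

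For each replicate, the authors had called bins of 20 bp with the input as covariate and listed only the bins that passed. IP reads and input reads were summed per gene over the 372288 exonic bins that were listed in both replicates and fell in the exon of 1 gene, and were divided by all reads of the list. The list of replicate 1 comprised 11333805 reads of the IP with 10161917 of the input, and that of replicate 3 comprised 14436573 with 8900292. The bins used held 72.3% and 74.2% of the IP reads. This gave 9936 genes, among them 9067 protein-coding ones, of which 8536 had enough reads to be tested. Because a bin had to pass in the IP (no listed bin had fewer than 4 IP reads, and among bins with 100 input reads the lowest had 6 in replicate 1 and 7 in replicate 3), the parts of an mRNA without IP reads, and their input, are missing. Low values are thus measured only where some IP signal existed. The filter on low counts also let 236 genes pass with under 10 input reads in each replicate through their IP reads, and 197 of these were called higher.

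The input was first checked for markers of the labelled cell type. In all, 9 of 12 melanocyte lineage markers had input reads in both replicates, with a summed level of 1707 and 1463 RPM (reads per 1 M reads of the list) in replicates 1 and 3. MITF, SOX10, MLANA, TYR and S100B were among them, whereas PMEL, TYRP1 and GPR143 had no listed bin. Keratinocyte markers summed to 24.1 and 28.2 RPM, nearly all from KRT10, and fibroblast markers to 25.3 and 16.9 RPM, nearly all from LUM, with COL1A1 and COL1A2 at 0. Leukocyte markers had at most 13 reads and endothelial markers none. Input reads are known only in bins that passed in an IP, so a 0 can mean that no bin was listed. The check could therefore not show that RNA of other cell types was absent from the lysate. In bulk RNA, fewer cells of a type and less RNA per cell cannot be told apart.

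The sequences of the bins with the most IP reads within single genes are given first, because they show what a bin holds and how far a GU-rich triplet marks it. For 5 of the highest and 5 of the lowest protein-coding genes, the 20 bases of the common bin with the most IP reads are printed 5′ to 3′ on the transcript strand, with each TGT in capitals, TGT (UGU in RNA) being the core of the GU-rich elements. CELF1 itself was added after its values had been seen. The highest were

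ZNF483: ctccttggtcaagtttattc
PLCXD1: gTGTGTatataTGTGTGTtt
FGF13: tatacccaaatacgcaccga
CREBL2: tatttacttgagtaaTGTtt
MDGA1: ccaccttcctgagtgaTGTg
CELF1: ccaagTGTggtaccttcctt

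and the lowest

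YBX1: ttttctcaatacgcctttaa
LSM3: tcttaagctaaatggtattt
MRPS17: tccagtttctcTGTggTGTt
RPL23: agtgaacaataaaggcgaga
GADD45GIP1: ccctgaagagatctgcgtcc

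On GRCh37, these bins lie at chr9:114310641-114310660 (+, ZNF483), chrX:217041-217060 (+, PLCXD1), chrX:137713761-137713780 (-, FGF13), chr12:12795421-12795440 (+, CREBL2), chr6:37603641-37603660 (-, MDGA1) and chr11:47487521-47487540 (-, CELF1). The bins of the lowest genes lie at chr1:43167861-43167880 (+, YBX1), chr3:14239781-14239800 (+, LSM3), chr7:56022961-56022980 (+, MRPS17), chr17:37006621-37006640 (-, RPL23) and chr19:13064961-13064980 (-, GADD45GIP1). All are in annotated 3' UTRs except that of RPL23, which is in the coding region. The FGF13 bin held 2004 and 2902 IP reads against 53 and 88 input reads in replicates 1 and 3. The CREBL2 bin held 1300 and 1668 IP reads against 44 and 68. By contrast, the YBX1 bin held 147 and 285 IP reads against 806 and 871 input reads. Few reads lay in the bins of PLCXD1 (36 and 13 IP reads against 2 and 0 input reads) and MDGA1 (6 and 20 against 1 and 0). TGT occurred in the bins of PLCXD1, CREBL2, MDGA1 and CELF1 and in that of MRPS17, a low gene, and not in those of ZNF483 and FGF13. Over all 247261 common 3' UTR bins of tested genes, 36.6% held TGT on the transcript strand. The share was 37.6% in the 3' UTR bins of genes higher in the IP and 35.1% in those of genes lower in the IP, and the GC content was 40.4% in both. A match to these letters is not a binding site, and reads reach beyond the site at which a protein sits.

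In the comparison of IP with input, 1808 genes (21.2% of those tested) were higher and 4797 (56.2%) lower in the IP at an adjusted p under 0.05 (edgeR quasi-likelihood test with the replicate as block, Benjamini-Hochberg adjustment). The median gene was lower in the IP (-0.74 on the log2 scale). Scaling by TMM, which assumes that most genes do not differ, moved this median by 0.68 and gave 2874 higher (33.7%) and 3017 lower (35.3%) genes, so that the higher genes were 48.8% of all calls instead of 27.4%. All 1808 higher genes were also higher under TMM. Of the 4797 lower genes, 3017 were also lower under TMM, 1780 were no longer called and 0 turned higher. Directions given below hold under both scalings unless the text says otherwise. The median of -0.74 serves as the yardstick for lists, and the shares called over all tested genes as that for their counts.

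The replicates ordered the genes alike. Across genes, which are not independent replicates and share both library totals, the log2 ratios of the replicates had a Pearson r of 0.919, the median absolute difference between them was 0.30, and 8.9% of the genes had opposite signs, though only 13 of the called genes did. At least 2-fold higher in both replicates were 1035 genes (12.1%), and at least 2-fold lower in both were 3035 (35.6%). The quartiles of the mean log2 ratio were -1.48 and 0.31.

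**Figure D1:**
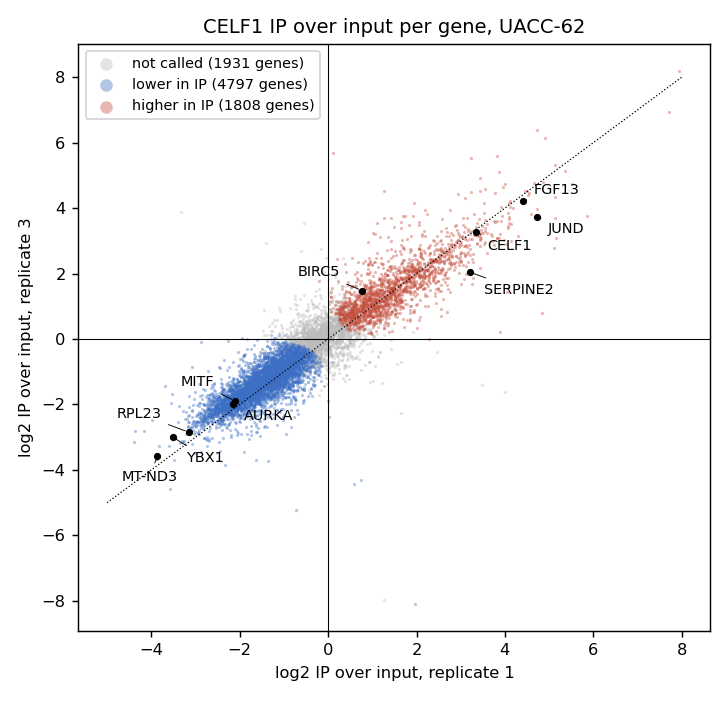
Log2 IP over input of each of the 8536 tested genes in replicate 1 (x axis) and replicate 3 (y axis) of UACC-62, coloured by the edgeR call, with 10 genes labelled and the dotted line marking equal values. Most genes lie below 0 in both replicates, while CELF1, FGF13 and JUND lie above 3 in both.

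The mRNA of CELF1 itself was among those higher in the IP. CELF1 mRNA (chromosome 11, minus strand) had 3148 and 2207 RPM in the IP and 308.5 and 230 RPM in the input of replicates 1 and 3, over 360 bins. Both IP samples lay far above both inputs, by 3.35 and 3.26 on the log2 scale in the respective replicates, and edgeR gave 3.31 (SE 0.25, adjusted p = 3.2e-08). Its excess was largest toward the end of the 3' UTR. The final 3000 bases of the annotated transcript held 77.6% and 71.9% of its IP reads, but 51.2% and 55.8% of its input reads. Considered apart, the 3' UTR bins of CELF1 had log2 ratios of 3.70 and 3.55, and its coding bins 1.40 and 1.86. CELF2, its close paralog, had 711 and 525 RPM in the IP against 61.6 and 70.6 in the input (log2 3.21, SE 0.26).

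Among the 10 highest protein-coding genes were transcription factors and secreted or membrane proteins. FGF13, a fibroblast growth factor homologous protein that acts inside the cell, had 2640 and 2985 RPM in the IP and 125 and 160 RPM in the input, and thus 4.31 on the log2 scale (SE 0.27, adjusted p = 7.3e-09 by edgeR). CREBL2, a bZIP protein related to CREB, had 2511 and 3515 RPM in the IP against 166 and 215 in the input, a log2 difference of 3.98 (SE 0.26). In both genes each IP sample exceeded each input more than 10 times over. JUND, an AP-1 transcription factor, had 172 and 75.2 RPM in the IP against 6.40 and 5.51 in the input (log2 4.29, SE 0.26), with a wider gap between the replicates in the IP than in the input. ZNF483, a zinc-finger protein, had 262 and 166 RPM in the IP against 11.9 and 7.19 in the input (log2 4.49, SE 0.24). ZNF703, NPTX1, FRK, TNFSF4 and MDGA1 rested on fewer input reads, with 2 to 58 per replicate, and had log2 differences of 4.59, 4.29, 3.91, 4.77 and 4.41. For TNFSF4 the replicates gave 5.86 and 3.75, from 3 and 11 input reads. PLCXD1 (5.13 and 4.35 in replicates 1 and 3) lies in the pseudoautosomal region, where reads of 2 identical copies cannot be separated, and its value is uncertain. In 8 genes the listed bins held no input read in either replicate. These genes passed the filter through their IP reads, and input outside their listed bins is unknown. With 3 input reads as the floor per library, a bound exists for these bins only, and not for the whole mRNA. The 2 bins of SSH3 were at least 81.0-fold and 97.8-fold higher in the IP of replicates 1 and 3. The 3 bins of SLC30A3 were at least 11.4-fold and 4.11-fold higher.

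Among the 10 lowest protein-coding genes were 5 of the mitochondrial genome. MT-ND3, a complex I subunit made inside mitochondria, had 3.97 and 5.26 RPM in the IP and 58.8 and 63.1 RPM in the input (log2 -3.72, SE 0.19). All 12 mitochondrially encoded mRNAs tested were lower under both scalings, with MT-ATP6, MT-ND2, MT-CO2 and MT-ND6 at -3.55, -3.44, -3.22 and -3.48 and MT-CO1 the least low at -1.78. Of the nuclear genes with at least 5 bins and 100 input reads per replicate, YBX1, a cold shock domain protein that itself binds mRNA, was lowest, with 136 and 188 RPM in the IP against 1556 and 1502 in the input (log2 -3.25, SE 0.26, adjusted p = 4.1e-08 by edgeR). Its 3' UTR bins (-3.29 and -2.93) and its coding bins (-3.70 and -3.06) were both low. LSM3, a spliceosomal Sm-like protein, followed at -3.06, MRPS17, a mitochondrial ribosomal protein, at -2.93, RPL23, a protein of the large cytosolic subunit, at -3.16 and -2.84 in the replicates, and GADD45GIP1 at -2.94. The lowest genes of other types were MTATP6P1, MTND2P28 and MTCO2P12, pseudogenes whose reads cannot be told from those of the mitochondrial genome.

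**Figure D2:**
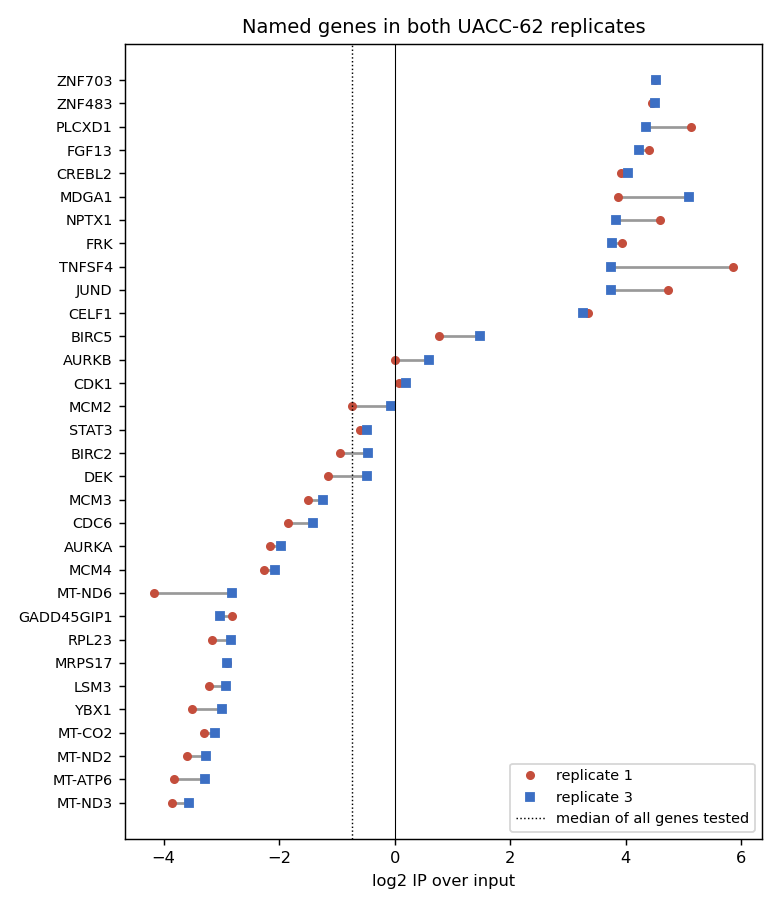
Log2 IP over input in replicate 1 (circles) and replicate 3 (squares) of the 10 highest and 10 lowest protein-coding genes and of 12 genes that the study names, with a line joining the replicates and a dotted line at the median of all tested genes (-0.74). The lines are short beside the distance between the groups, except in TNFSF4, MDGA1 and MT-ND6.

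Where along an mRNA the IP reads lay was compared next. In protein-coding genes, 3' UTR bins held 80.7% and 79.7% of the IP reads used but 56.4% and 58.5% of the input reads in replicates 1 and 3. Coding bins held 18.2% and 19.4% of the IP reads and 42.8% and 40.7% of the input reads. On the log2 scale, IP over input was 0.28 and 0.33 for 3' UTR bins, -1.47 and -1.19 for coding bins, and -0.23 and -0.25 for the few 5' UTR bins. The same held inside genes. In 4239 genes with at least 50 reads in each region and replicate, the median 3' UTR ratio exceeded the coding ratio by 0.45 and 0.42, and 65.9% of the genes had the higher ratio in the 3' UTR in both replicates. The difference was 1.5045 and 1.1154 in the 830 such genes called higher, of which 800 had it in both replicates, and 0.18 and 0.18 in the 2762 called lower. As the calls include the same reads, these figures describe the classes and are no test of them. Among the named genes, the widest gaps were those of MRPL19, with 3' UTR ratios of 3.30 and 3.14 against coding ratios of -1.11 and 0.10, and of EIF4E2, with 3.25 and 2.97 against -0.69 and 0.13. In JUND the coding bins (4.77 and 3.84) were as high as the 3' UTR bins (4.67 and 3.62).

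**Figure D3:**
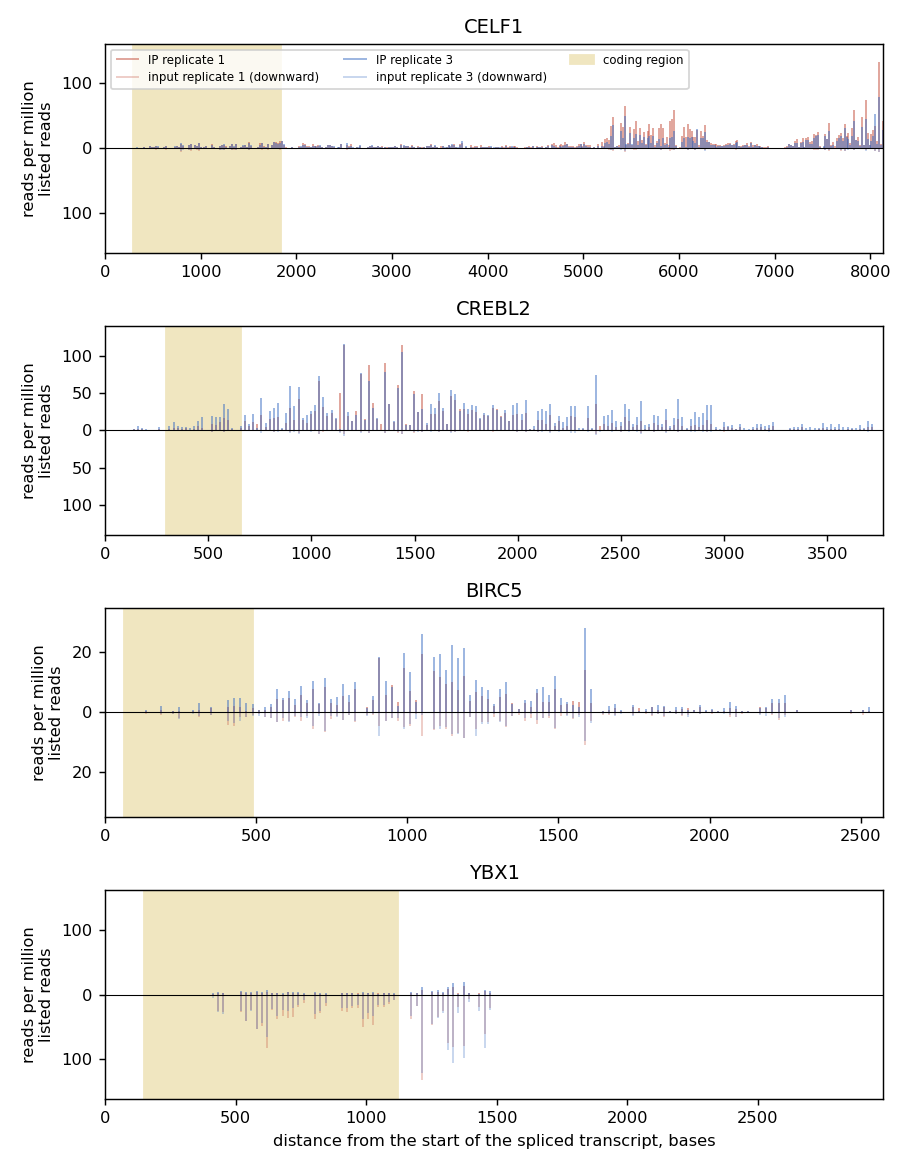
RPM in each common bin along the spliced annotated transcript of CELF1, CREBL2, BIRC5 and YBX1 (x axis, bases from the transcript start), with IP upward and input downward for replicates 1 and 3 and the coding region shaded. IP reads of CELF1, CREBL2 and BIRC5 lie mostly beyond the coding region (between 89.99% and 96.6% in the 3' UTR). Input reads of CREBL2 and BIRC5 lie there nearly as much (between 90.9% and 94.3%), and those of CELF1 less (72.6% and 73.7% in replicates 1 and 3). In YBX1 input exceeds IP in coding region and 3' UTR alike.

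The length of the annotated 3' UTR went with IP over input. Genes higher in the IP had a median 3' UTR of 2841 bases (quartiles 1575.5 and 4522, 1599 genes), those lower 1041 bases (410.0 and 2272.8, 4548 genes) and those not called 2116.5 bases. When the genes were divided into 5 groups of near-equal size by 3' UTR length, the share of genes called higher was 4.17%, 11.7%, 19.9%, 27.1% and 38.2% from the shortest to the longest, and the share called lower fell from 84.8% to 33.8%. Under TMM the share called higher went from 8.402% to 56.8%. The median log2 difference over the same groups was -1.63, -1.06, -0.71, -0.38 and 0.04, and the order was the same in each replicate. It was also the same within 3 ranges of 3' UTR GC content. Counting 3' UTR bins alone, the medians went from -1.92 to 0.13 in replicate 1 and from -1.73 to 0.34 in replicate 3. Coding bins alone showed a smaller range, from -1.85 to -0.95 and from -1.67 to -0.70. The share called higher also rose with the density of TGT in the 3' UTR, with 6.70% of genes called higher in the lowest of 5 groups (up to 18.8 per 1000 bases) and 29.5% in the highest (from 30.2 per 1000 bases), and medians of 26.9 per 1000 bases in higher and 23.1 in lower genes. For the density of TG the shares were 10.1%, 17.8%, 23.8%, 27.4% and 22.1% from the lowest to the highest of 5 groups, so that the last fell back. The length of the 3' UTR was not held fixed in the TGT and TG groups. The median GC content of the 3' UTR was 39.98% in higher and 39.69% in lower genes, but the share called higher was lower at both ends of the GC range (13.8%, 24.4%, 23.3%, 23.5% and 16.1% from the lowest to the highest of 5 groups). These are descriptions across genes.

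**Figure D4:**
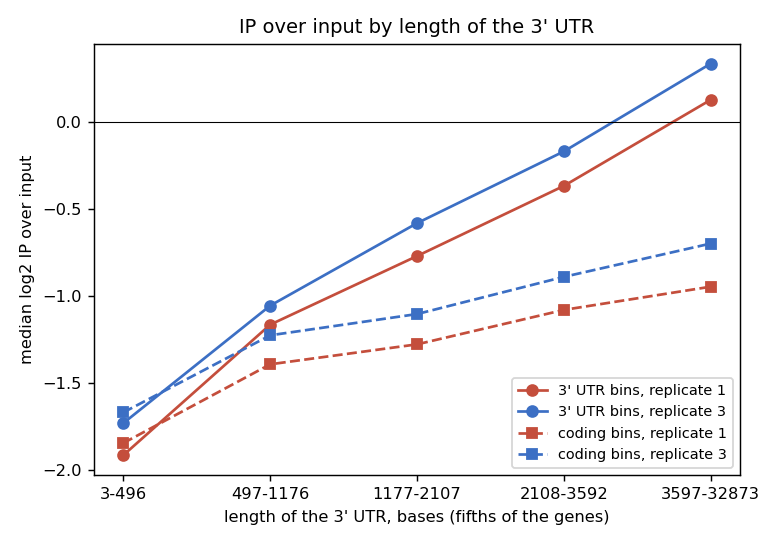
Median log2 IP over input of genes in 5 groups by annotated 3' UTR length (x axis, bases), computed from 3' UTR bins (solid lines, circles) or coding bins (dashed lines, squares) in replicate 1 and replicate 3. All lines run upward, those of 3' UTR bins from below -1.7 to above 0 and those of coding bins from below -1.6 to between -0.95 and -0.70.

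Genes were then grouped by function. Lists that make up housekeeping machines were low nearly throughout. All 79 cytosolic ribosomal protein mRNAs tested were lower (78 under TMM), with a median log2 difference of -2.49. Their 3' UTRs are short, with a median of 115 bases. Of 78 nuclear oxidative phosphorylation genes, 76 were lower (72 under TMM, median -2.14), from NDUFA12 of complex I (-2.89) to ATP5IF1, the inhibitor of ATP synthase (0.24, adjusted p = 0.23 by edgeR), which was called higher under TMM (0.93). Of 72 mitochondrial ribosomal proteins, 71 were lower (67 under TMM, median -1.91). The exception was MRPL19, with 1838 and 1883 RPM in the IP against 276 and 300 in the input (log2 2.69, SE 0.24).

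Proteasome subunits behaved alike, with 43 of 45 lower (40 under TMM, median -2.15). PSMA4, a core subunit, was at -2.61, while PSME3, which caps the core as an activator, had 1257 and 1164 RPM in the IP against 212 and 222 in the input (log2 2.48, SE 0.24) and PSMD10, a chaperone of proteasome assembly, was at 1.09. Aminoacyl tRNA synthetases were lower in 19 of 20 (17 under TMM, median -2.01), translation initiation factors in 39 of 50 (34 under TMM, median -1.85) and elongation factors in 6 of 7. EIF3M was the lowest initiation factor (-2.59) and EIF4E2, a cap-binding protein that competes with EIF4E, the highest, with 585 and 471 RPM in the IP against 88.0 and 80.8 in the input (log2 2.64, SE 0.24). All 56 replication-dependent histone mRNAs tested, which lack poly(A) tails and have very short 3' UTRs, were lower (55 under TMM), although their medians differed between replicates, at -2.64 and -1.90. Glycolysis (16 of 19 lower, 14 under TMM, median -1.85), actin cytoskeleton (21 of 24, 18 under TMM, -1.76), splicing factors (58 of 72, 48 under TMM, -1.44), DEAD and DEAH box helicases (36 of 42, 28 under TMM, -1.44), chaperones (40 of 50, 29 under TMM, -1.47) and ER translocation (26 of 30, 24 under TMM, -1.45) also lay below the median of all genes. Each of these lists held members that went the other way, such as SLC16A1, a lactate carrier (1.63), CAPZA1, an actin capping protein (2.15), DDX3X (1.12), DNAJB1, an HSP70 partner (1.85), and SSR1 (1.01).

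**Figure D5:**
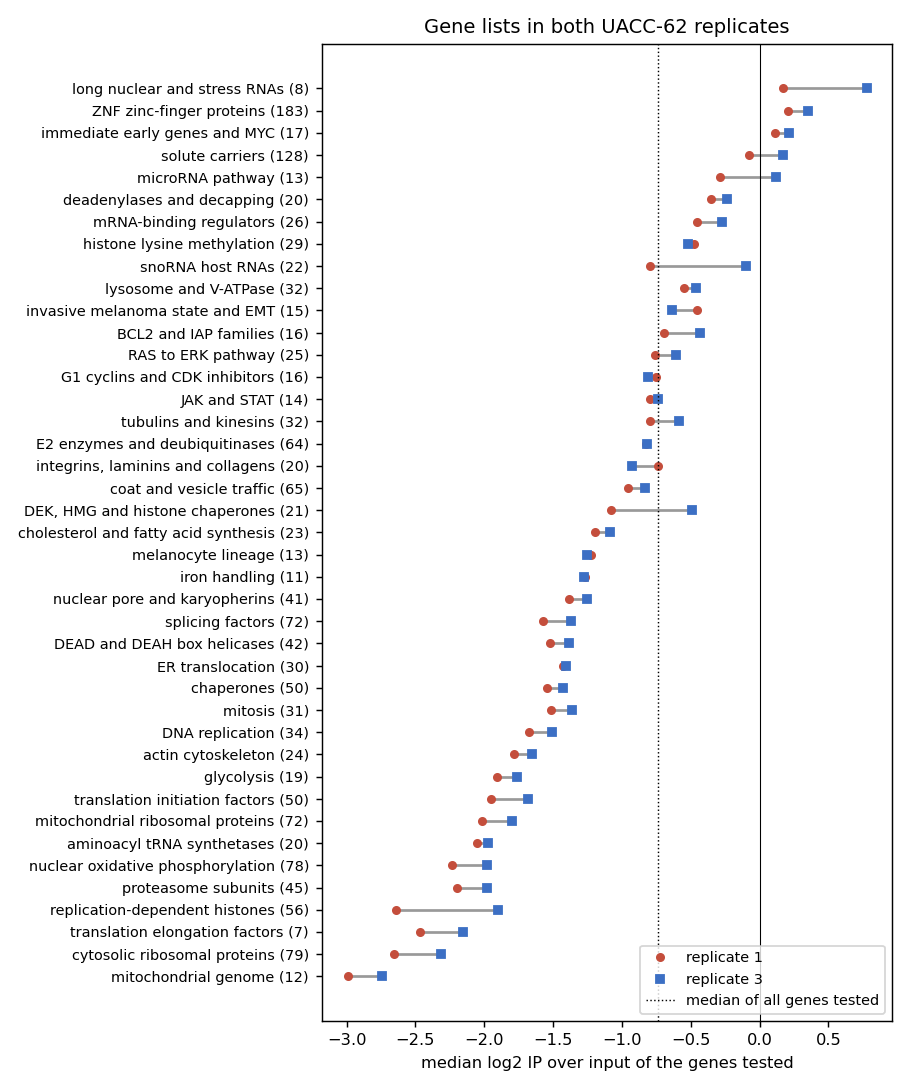
Median log2 IP over input of the tested members of each gene list with at least 5 of them (number in brackets) in replicate 1 (circles) and replicate 3 (squares), with a dotted line at the median of all tested genes (-0.74). Mitochondrial, ribosomal, histone and proteasome lists lie below -1.7 in both replicates, while zinc-finger proteins, immediate early genes and long nuclear RNAs lie above 0 in both.

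At the other end, 4 lists had medians above 0. Genes scarce in the input enter a list only where their bins passed in the IP, so low values among them can be missed. How many calls in these lists passed the filter through IP reads was not counted. Of 508 ZNF zinc-finger genes, mostly transcriptional repressors, 244 had a common exonic bin and 183 were tested. Of these 183, 70 were higher and 43 lower, against 110 and 20 under TMM, with a median of 0.33. ZNF264 had 1014 and 719 RPM in the IP against 91.0 and 65.1 in the input (log2 3.47, SE 0.25), and ZNF677 was at 3.60. ZNF593, a small protein of ribosome maturation, was lowest at -2.63. Of 128 solute carriers tested out of 368, which move metabolites across membranes, 45 were higher and 47 lower (70 and 19 under TMM). The median of this list was 0.09, and -0.08 and 0.17 in replicates 1 and 3. It thus lay near 0, but above the -0.74 of all tested genes. For both lists the shares to compare are 21.2% higher and 56.2% lower over all tested genes (33.7% and 35.3% under TMM). The plasma membrane carriers SLC29A1 (nucleosides) and SLC22A5 (carnitine) reached 3.92 and 3.76, whereas SLC25A5, the mitochondrial ADP/ATP carrier, was at -2.27.

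Immediate early genes are induced within minutes of growth signals and encode short-lived mRNAs. Of 17 tested, 7 were higher and 5 lower (10 and 1 under TMM), with a median of 0.17. Among all tested genes, 21.2% were higher and 56.2% lower (33.7% and 35.3% under TMM), with a median of -0.74. Beside JUND, IER2 had 102 and 65.0 RPM in the IP against 10.6 and 7.64 in the input (log2 3.18, SE 0.20). JUN (1.44) and JUNB (1.47) were higher from few reads, with 25 to 55 IP reads and 6 to 21 input reads per replicate. FOS was at 0.10 (adjusted p = 0.72 by edgeR), and was called higher under TMM only. MYC was lower, with 14.2 and 11.2 RPM in the IP against 33.7 and 30.7 in the input (log2 -1.35, SE 0.17). Of the 8 long nuclear and stress RNAs tested, 4 were higher, namely SAMMSON, a melanoma lncRNA (2.24), NEAT1 of paraspeckles (2.12), NORAD, which binds Pumilio proteins (1.35), and FTX. MALAT1 of nuclear speckles was lower at -0.78 with the totals and was not called under TMM. More widely, 156 of 330 lncRNA genes were higher and 75 lower (208 and 45 under TMM), with a median of 0.60, compared with -0.78 for 7972 protein-coding genes. Scarce lncRNAs, too, were tested only where their bins passed in the IP, and how many of these calls entered so was not counted. ENSG00000277879, LINC00632 and ENSG00000267152 were the highest genes of other types with at least 5 bins and 100 IP reads per replicate, at 5.28, 4.85 and 5.67. The value of ENSG00000267152 rested on 2 input reads in each replicate, and it passed the filter through its IP reads. LEMD1-DT, an lncRNA, had a single listed bin without input reads. In that bin it was at least 69.9-fold and 40.3-fold higher in the IP of replicates 1 and 3.

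Regulators of mRNA fate spread over the whole range. Of 26 mRNA-binding regulators, 6 were higher and 11 lower (13 and 7 under TMM), with a median of -0.37. Over all tested genes, 21.2% were higher and 56.2% lower (33.7% and 35.3% under TMM). CPEB2, which governs cytoplasmic polyadenylation, had 818 and 450 RPM in the IP against 105 and 87.7 in the input (log2 2.66, SE 0.25), and ELAVL1, which protects AU-rich mRNAs, was at 1.02. IGF2BP3 (-2.44) was low together with YBX1. Among 20 deadenylase and decapping genes, 6 were higher and 8 lower. CNOT6, a catalytic deadenylase subunit of the CCR4-NOT complex, had 1200 and 1215 RPM in the IP against 122 and 135 in the input (log2 3.24, SE 0.25), whereas CNOT1, the scaffold of the complex, was at -1.74 and LSM1, a decapping cofactor, at -2.16. In the microRNA pathway, 5 of 13 genes were higher and 5 lower (7 and 4 under TMM). The higher genes were TNRC6A, TNRC6B and TNRC6C, the GW182 proteins that recruit deadenylases, and AGO1 and AGO2 of the effector complex. DROSHA, XPO5, TARBP2 and PRKRA were lower, and MOV10, a helicase, was lower with the totals only. DGCR8, DICER1 and AGO3 were not called with the totals, and DICER1 and AGO3 were called higher under TMM. TNRC6B had 878 and 889 RPM in the IP against 194 and 183 in the input (log2 2.23, SE 0.23), and TNRC6C was at 2.94. The median of the list changed sign between the replicates (-0.28 and 0.12). Restricting the bins to those with more than 30 IP reads, which keeps 2299 genes, turned the medians of the deadenylase (1.83), microRNA (2.39), mitosis (1.12) and G1 (1.36) lists positive.

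Cell cycle genes included high and low members. Of 31 mitosis genes, 21 were lower (19 under TMM) and 6 higher, against 56.2% lower (35.3% under TMM) and 21.2% higher over all tested genes. Their median of -1.50 lay below the -0.74 of all genes. At least 2-fold lower in both replicates were 20 of them, against 35.6% of all tested genes. INCENP, a scaffold of the chromosomal passenger complex, had 371 and 318 RPM in the IP against 53.7 and 43.5 in the input (log2 2.83, SE 0.23), and UBE2C, the ubiquitin-conjugating enzyme of the anaphase-promoting complex, was at 2.74. BIRC5 (survivin), another passenger protein, had 370 and 564 RPM in the IP against 217 and 202 in the input, so that both IP samples exceeded both inputs (log2 1.12, SE 0.24, adjusted p = 0.00053 by edgeR). Its 3' UTR bins had ratios of 0.86 and 1.53. AURKA, a spindle kinase, had 25.6 and 28.8 RPM in the IP against 114 and 114 in the input (log2 -2.07, SE 0.19). AURKB, the kinase of the passenger complex, had 54.2 and 57.8 RPM in the IP against 54.2 and 38.1 in the input, and CDK1, the kinase of mitotic entry, 208 and 228 against 198 and 200. Neither was called with the totals (log2 0.30 and 0.13, adjusted p = 0.16 and 0.58 by edgeR), and both were higher under TMM (0.98 and 0.82), that is, above the median gene.

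DNA replication genes were lower in 28 of 34 (22 under TMM, median -1.66). MCM4 (-2.17) and MCM3 (-1.37) of the replicative helicase and CDC6 (-1.64), which loads it, were lower, and MCM2 was not called under either scaling (-0.41 with the totals, adjusted p = 0.060 by edgeR, and 0.28 under TMM). GINS1, a subunit of the helicase complex, stood against the list with 763 and 802 RPM in the IP against 84.5 and 78.6 in the input (log2 3.26, SE 0.24), as did RRM2, a subunit of ribonucleotide reductase (2.01), and ORC4 (1.29). Near the shares over all genes with the totals, 10 of 16 G1 genes were lower (but 2 under TMM) and 3 were higher. These were CCND1, cyclin D1, with 1698 and 1527 RPM in the IP against 241 and 203 in the input (log2 2.86, SE 0.24), E2F3 (2.48), and CDK6 (2.16), the cyclin D kinase, which took 5984 and 5432 RPM of the IP. CDK4, its paralog, was at -2.12, with 47.3 and 53.8 RPM in the IP against 218 and 221 in the input. DEK, a chromatin protein and oncogene, had 178 and 285 RPM in the IP against 398 and 399 in the input. It was lower with the totals (log2 -0.82, SE 0.24, adjusted p = 0.0052 by edgeR) and was at -0.14 under TMM, where it was not called (adjusted p = 0.54 by edgeR). Its 3' UTR bins had ratios of -0.92 and -0.29 and its coding bins -2.31 and -1.59, a gap of 1.40 and 1.30.

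Of 13 melanocyte lineage genes, 11 were lower, 1 was higher and 1 was not called (8 lower and 2 higher under TMM, median -1.25). The shares over all tested genes were 56.2% lower and 21.2% higher (35.3% and 33.7% under TMM). MITF, the master transcription factor of the lineage, had 127 and 135 RPM in the IP against 551 and 501 in the input (log2 -2.11 and -1.89), and SOX10 (-1.34) and TYR, tyrosinase (-1.25), followed. MLANA was at -0.25 and not called with the totals, and was called higher under TMM. PAX3, which acts upstream of MITF, had 111 and 142 RPM in the IP against 12.2 and 14.2 in the input (log2 3.25, SE 0.21, adjusted p = 9.2e-09 by edgeR). Of 15 genes of the invasive melanoma state and EMT, 3 were higher (SERPINE2, CCN2 and CD44) and 8 lower (5 and 1 under TMM). With the totals, these counts were near the shares over all tested genes. SERPINE2, a secreted protease inhibitor, had the largest number of IP reads of any gene, namely 3.49% and 1.43% of the IP against 0.380% and 0.347% of the input in replicates 1 and 3 (log2 2.62, SE 0.32), and its shares in the IP samples differed more than those of the inputs. VIM, vimentin, was at -2.13.

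In the RAS to ERK pathway, 5 of 25 genes were higher and 15 lower (8 and 6 under TMM), close to the 21.2% and 56.2% over all tested genes. SPRED1, an inhibitor of RAS signalling, had 2171 and 2182 RPM in the IP against 358 and 364 in the input (log2 2.59, SE 0.24). The ERK phosphatase DUSP5 (1.78 and 2.23 in the replicates), the inhibitors SPRY1 and SPRY4, and BRAF (1.25) were the other higher members, and MAP2K2, an ERK kinase, was lowest at -1.88. Of 14 JAK and STAT genes, SOCS5 (2.17), STAT5B and JAK2 were higher and 9 lower (5 under TMM), with JAK1 at -1.93. These counts were also near the shares over all tested genes. STAT3 had 139 and 145 RPM in the IP against 212 and 203 in the input. Its log2 value was -0.55 with the totals (adjusted p = 0.029 by edgeR) and 0.14 under TMM, where it was not called. In the BCL2 and IAP families, 4 of 16 were higher and 9 lower (6 and 5 under TMM). The pro-apoptotic BAX (-1.70) and BAD (-1.62) and the pro-survival BCL2A1 (-2.05) were lower. Highest was the pro-apoptotic BCL2L11 (1.32), from few reads. It had 18 and 19 IP reads against 6 and 5 input reads in replicates 1 and 3. BIRC2 was lower with the totals only (-0.71, and -0.02 under TMM). Among iron genes, the ferritin chains FTL (-2.47) and FTH1 (-2.04) were lower, while HMOX1, heme oxygenase, had 144 and 167 RPM in the IP against 19.1 and 16.5 in the input (log2 3.12, SE 0.22).

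Of 65 coat and vesicle traffic genes, 12 were higher and 41 lower (17 and 30 under TMM, median -0.92), near the 21.2% and 56.2% over all tested genes. TMED10, a cargo receptor of the early secretory pathway, had 2594 and 2549 RPM in the IP against 566 and 589 in the input (log2 2.16, SE 0.24), while COPB2 of the COPI coat was at -2.28. Of 32 lysosome and V-ATPase genes, 6 were higher and 16 lower (14 and 11 under TMM), also near these shares with the totals. LAMP2, a lysosomal membrane protein, was at 1.33 and ATP6V0E1, a proton pump subunit, at -2.15. Integrins, laminins and collagens were higher in 4 and lower in 14 of 20 (5 and 5 under TMM), and ITGB8 was the highest of them with 3997 and 2317 RPM in the IP against 1353 and 967 in the input (log2 1.41, SE 0.24). In cholesterol and fatty acid synthesis, 2 genes were higher, among them SREBF2, the transcription factor of the pathway (0.58), and 16 of 23 lower (12 under TMM).

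Of 41 nuclear pore and karyopherin genes, 35 were lower (25 under TMM) and 3 higher, against 56.2% and 21.2% over all tested genes. XPO4, an exportin, had 1183 and 1302 RPM in the IP against 190 and 190 in the input (log2 2.71, SE 0.24), whereas KPNB1, importin beta, was at -2.10. Among 29 genes of histone lysine methylation, 5 were higher and 15 lower (10 and 6 under TMM), near the shares over all genes with the totals. The methyltransferase gene SETD1B (2.32) and the demethylase gene KDM1A (-2.04) marked the ends of this list. The list of DEK, HMG proteins and histone chaperones had 2 higher and 15 lower of 21 (6 and 9 under TMM), from SSRP1 of the FACT complex (-2.01) to HMGN4 (0.72). E2 enzymes and deubiquitinases had 11 higher and 38 lower of 64 (20 and 25 under TMM), also near the shares over all genes. UBE2M, which conjugates NEDD8, was at -2.43. Tubulins and kinesins had 4 higher and 18 lower of 32 (11 and 12 under TMM), with the neuronal kinesin gene KIF5C highest (3.19, SE 0.21). Of 22 snoRNA host RNAs, 3 were higher and 9 lower (9 and 8 under TMM), from SNHG6 (-2.40) to SNHG14 (2.06).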

How the data were processed

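Per the study's methods, 40-nt reads were mapped to GRCh37/hg19 (TopHat, first-strand setting), and enriched bins of 20 bp were called for each replicate by Piranha, which took the input as covariate. The submitters' processing notes list TopHat2 2.0.4, Bowtie 0.12.7 and SAMtools 0.1.16. The deposited lists hold passing bins only. They give raw IP read counts, as the authors deposited them. They also give Piranha's p-value, likewise deposited by the authors, and a last column, deposited without a header, which was read here as the input covariate, a ratio of a bin's input reads to a constant. This reading is inferred from its values and from the study's use of the input as covariate, and every input value rests on it. Bins below the 30-read minimum of the study are still present. The labels call the RNA poly A+ while their protocol describes removal of ribosomal RNA, and this was not settled.

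Dividing the covariate by its lowest step gave whole input reads (100% of the values within 0.05 of a whole number), with 0.01 standing for none. The transcript strand was taken as the reverse of the listed strand, which was the annotated strand for 99.3% of bins in protein-coding exons of 1 strand. Bins present in both lists (430371) were assigned by their centre to exons of the GENCODE annotation (lifted to GRCh37), 1956 in exons of several genes and 56127 outside exons being left out.

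Genes were fitted with edgeR 4.0.16 (glmQLFit, glmQLFTest), with list totals as library sizes, the replicate as block, filterByExpr and Benjamini-Hochberg adjustment at 0.05. The replicate numbers pair IP and input because the authors set each IP against the input of the same number. Deviations of same-numbered samples correlated (r = 0.377 across genes). Since bins were listed with the input of the same number as covariate, this correlation cannot by itself show the pairing. Ratios per replicate are log2 of IP over input with a pseudocount of 1 read, and differences in the text named log2 are those of the edgeR fit unless both replicates are given. SE is the fitted difference over the root of the F statistic. Data were also simulated with the common dispersion of these libraries for every gene, no replicate effect and no selection of bins on IP reads. Among 8536 genes, the fit recovered 66.5% of 200 genes changed 2-fold, with 6 false calls. Of 200 genes changed 4-fold it recovered 96.5%, with 15 false calls. The deposited bins were selected on IP reads and most genes were called, so this recovery may not hold for them. Named genes were the 10 highest protein-coding genes by their lower replicate and the 10 lowest by their higher replicate (adjusted p under 0.05, at least 5 bins and 100 reads in each replicate), 3 of other types per side by the same rule, the ends of 45 gene lists, and genes that the study names. Genes named beyond these as examples were chosen after their values were seen. Bins of mitochondrial genes were not printed because the files' build has another mitochondrial sequence. The members and lists were chosen with earlier results of these data known. Read depths count reads in listed bins only, and read counts without molecular identifiers are not independent molecules. Alternatives were TMM factors, DESeq2 1.42.0, no replicate block, no filter on low counts, a pseudocount of 0.5 read, totals without mitochondrial bins, stricter or wider sets of bins, and each replicate left out.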

Additional observations from a re-analysis of the deposited data

Results flagged for a closer look

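Bins listed in both replicates but outside annotated exons entered no comparison. These 56127 bins held 8.67% of the IP reads and 3.62% of the input reads in replicate 1, and 6.69% of the IP reads and 5.14% of the input reads in replicate 3. IP over input was thus above 0 in both replicates, at 1.26 and 0.38 on the log2 scale, and the replicates differed. No control antibody was analysed here, so this signal has the input as its sole reference. With 2 samples per group, no test for single deviating samples was made.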

How the results depend on the processing

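The scaling and the selection of bins on IP reads moved the results. TMM factors gave 2874 higher and 3017 lower genes, with 1853 at least 2-fold higher and 1250 at least 2-fold lower in both replicates, and 3017 genes were lower under both scalings (a comparison added after seeing the data). DESeq2 with its size factors gave 2137 lower and 2444 higher genes. Under TMM the log2 values of STAT3 (0.14) and LUM, the fibroblast marker tested (0.11), both called lower with the totals, turned positive, as did those of MCM2 (0.28), EEF1E1 (0.24) and SARS1 (0.30), which neither scaling called, and the medians of mRNA-binding regulators (0.32), deadenylases (0.36), the microRNA pathway (0.60), lysosome (0.20), invasive state (0.093), RAS to ERK (0.028), BCL2 and IAP (0.080), histone lysine methylation (0.25) and snoRNA hosts (0.25).

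Bins with more than 30 IP reads left 2299 genes, of which 1039 were higher, 885 lower and 635 at least 2-fold lower in both replicates. This selects bins on their IP reads. STAT3 was then at 0.17, and medians turned positive for E2 enzymes and deubiquitinases (0.67), mRNA-binding regulators (0.0029), deadenylases (1.83), microRNA pathway (2.39), mitosis (1.12), G1 (1.36), cholesterol synthesis (0.12), lysosome (0.028), tubulins and kinesins (0.77), JAK and STAT (1.09), nuclear pore (0.10), histone lysine methylation (1.81) and snoRNA hosts (0.42). With bins at p under 0.01 the microRNA median was 0.52. With bins holding input reads in both lists, solute carriers were at -0.10 and PRPF18 at -0.41. For these, apart from the scaling and the selection on IP reads, the cause was not tested.

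Without the replicate block, 1581 genes were higher and 4352 lower. Leaving out a replicate leaves no residual degrees of freedom, so no edgeR test was made. By the remaining replicate, 1211 to 1342 genes were at least 2-fold higher and 3388 to 3709 at least 2-fold lower, the microRNA median was 0.12 without replicate 1 and -0.28 without replicate 3, and that of solute carriers was 0.17 and -0.075.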
